A study of Homo sapiens with 12 samples.

Results

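The IFIT and OAS genes encode antiviral proteins that bind foreign RNA, and their RNA levels were followed here in human lymphoma cells given cereblon modulators. The 8 genes are IFIT1, IFIT2, IFIT3 and IFIT5 of the IFIT family and OAS1, OAS2, OAS3 and OASL of the OAS family. They were taken by gene symbol from a deposited table of 58684 entries, with earlier results of these data known. All 8 were among the 22528 genes that passed the filter on low values. The libraries came from established lines of diffuse large B-cell lymphoma treated for 18 hours. The 4 avadomide (CC-122) libraries, the 4 lenalidomide libraries and the 4 DMSO (solvent) libraries each held 1 library of U2932, 1 of SUDHL-4, 1 of TMD8 and 1 of WSU-DLCL2, which made 12 in all. Values listed below for a treatment always stand in that order of lines. No line had a second library of the same treatment, so p-values rest on how changes differed between lines. The limma model of all 12 libraries pools this spread over the treatments. Its p-values thus do not show how evenly the change of a single treatment ran over the 4 lines. An SE given over 4 lines comes from that pooled spread. No label or paper at hand gives the doses.

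IFIT proteins are built from tetratricopeptide repeats and are made after interferon exposure. IFIT1 binds messenger RNA whose cap lacks 2′-O-methylation and blocks its translation, IFIT2 and IFIT3 form complexes with it, and IFIT5 binds RNA with a 5′ triphosphate. OAS1, OAS2 and OAS3 are enzymes that, on binding double-stranded RNA, make 2′-5′-linked oligoadenylates. Those act as messengers that start RNA decay. OASL has lost that enzyme activity and acts on the RNA sensor RIG-I. Genes of both families are classic targets of ISGF3, a transcription factor complex that holds STAT2 and IRF9 and binds the interferon-stimulated response element, a repeat of GAAA spaced by a pair of bases. Lenalidomide and avadomide both hold a glutarimide ring that binds cereblon, the substrate receptor of a ubiquitin ligase, and turn the ligase onto the transcription factors IKZF1 and IKZF3. Lenalidomide carries it on an isoindolinone and avadomide on a quinazolinone.

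The 4 IFIT genes lie in a cluster on the plus strand of chromosome 10 in the order IFIT2, IFIT3, IFIT1 and IFIT5, from base 89283694 to base 89421001 (GRCh38, GENCODE 29 gene models). OAS1, OAS3 and OAS2 form a second cluster on the plus strand of chromosome 12, from base 112906777 to base 113011723. OASL stands apart from it on the minus strand of chromosome 12, from base 121019111 to base 121039242. In that annotation LIPA on the opposite strand spans IFIT1, IFIT2 and IFIT3, and an antisense gene overlaps OAS1 and spans OAS3 and OAS2. AL353751.1, a noncoding gene on the same strand, overlaps IFIT2. These are overlaps of whole gene spans, and exons were not compared. The counting is nowhere stated to use strand, so whether reads of such partners entered the values is not known.

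RefSeq promoter windows (GRCh38.p14, 250 bases before to 50 after a transcript start) were at hand for 5 of the 8 genes, with IFIT3 represented by 2 starts. They are shown because these genes moved together. Each line below runs 5′ to 3′ on the plus strand from 160 bases before the start to 10 after it. The windows are chr10:89392463-89392632 for IFIT1, chr10:89327837-89328006 and chr10:89332369-89332538 for the starts of IFIT3, chr10:89414408-89414577 for IFIT5, chr12:112938314-112938483 for OAS3 and chr12:112906802-112906971 for OAS1. Capitals mark matches of GAAANNGAAA on either strand, except in OAS1, where they mark GAAANGAAA, a repeat spaced by a single base that was searched after the OAS1 window had been read.
IFIT1: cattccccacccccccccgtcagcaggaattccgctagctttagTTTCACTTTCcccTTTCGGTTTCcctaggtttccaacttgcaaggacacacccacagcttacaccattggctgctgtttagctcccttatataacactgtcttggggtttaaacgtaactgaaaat
IFIT3 start 1: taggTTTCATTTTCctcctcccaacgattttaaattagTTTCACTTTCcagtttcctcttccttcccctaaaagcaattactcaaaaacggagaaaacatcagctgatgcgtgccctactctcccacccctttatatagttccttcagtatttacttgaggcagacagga
IFIT3 start 2: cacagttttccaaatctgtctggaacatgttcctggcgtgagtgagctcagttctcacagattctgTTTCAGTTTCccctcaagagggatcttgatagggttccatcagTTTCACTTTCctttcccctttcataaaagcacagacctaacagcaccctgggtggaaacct
IFIT5: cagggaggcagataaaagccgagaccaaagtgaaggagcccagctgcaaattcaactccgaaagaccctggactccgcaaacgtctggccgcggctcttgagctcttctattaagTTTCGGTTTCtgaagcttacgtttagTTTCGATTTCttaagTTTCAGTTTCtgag
OAS3: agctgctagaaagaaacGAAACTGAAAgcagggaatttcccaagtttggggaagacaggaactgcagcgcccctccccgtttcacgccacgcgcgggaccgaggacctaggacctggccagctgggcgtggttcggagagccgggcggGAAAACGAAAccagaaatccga
OAS1: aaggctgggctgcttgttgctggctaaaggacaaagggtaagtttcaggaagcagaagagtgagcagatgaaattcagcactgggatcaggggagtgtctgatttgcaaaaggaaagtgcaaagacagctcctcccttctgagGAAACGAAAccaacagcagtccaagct

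GAAANNGAAA was found in the windows of IFIT1, IFIT3, IFIT5 and OAS3, with 2 matches for IFIT1, 2 at each start of IFIT3, 3 for IFIT5 and 2 for OAS3. Of all 35116 promoter windows, 3.57% held this motif. The matches lay on the minus strand in the IFIT genes and on the plus strand in OAS3. The first began 116 bases before the start in IFIT1, 45 before it in IFIT5 and 143 before it in OAS3. OAS1 had no match of those letters in its window but had GAAANGAAA from 17 bases before the start, a motif held by 3.12% of windows. In IFIT3 start 2 and in OAS3 a match of GAAANGAAA overlaps one of GAAANNGAAA. A match describes the letters only and shows no binding.

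**Figure D1:**
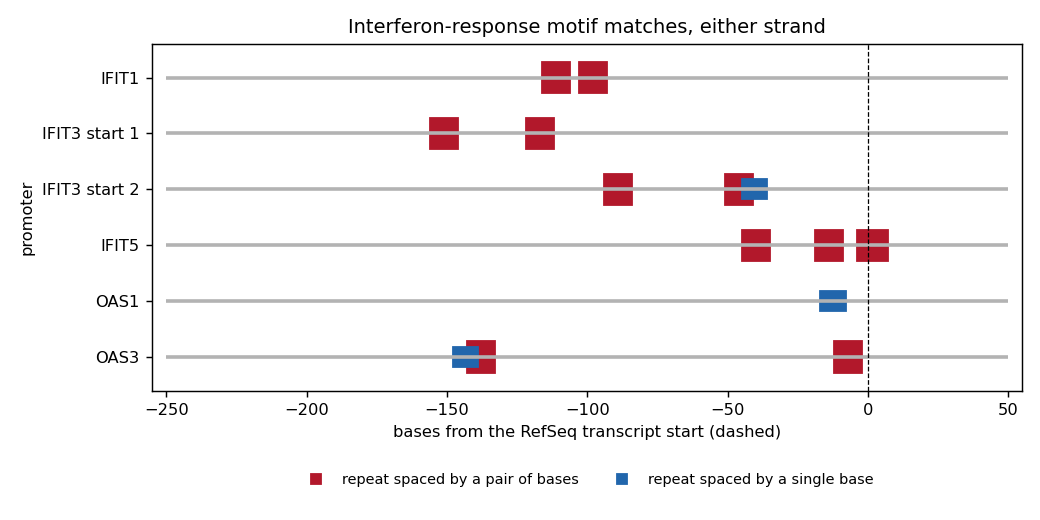
Matches of the repeat of GAAA spaced by a pair of bases (red) or by a single base (blue) in 6 promoter windows, by distance in bases from the RefSeq transcript start (dashed line at 0), both strands searched. The IFIT windows hold 2 or 3 red boxes each, OAS3 holds 2, and OAS1 holds 1 blue box.

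All values that follow are the authors' deposited log2 values, whose normalization is unknown. The median SD over the 12 libraries fell to 0.231 for genes with means of -2 to -1, against 0.898 for means of 0 to 1. Fold changes of the lowest genes may thus be compressed, which was not tested. Whether the deposited values are scaled by gene length is not stated, so levels are compared within a gene and not between genes. In the DMSO libraries TMD8 had the highest value of the 4 lines for 5 of the 8 genes, and SUDHL-4 the lowest for 6. With 1 library per line the order of lines has no measured spread.

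Avadomide raised all 4 IFIT genes, with IFIT1 and IFIT3 moving most. IFIT1, the cap-reading member, stood at 9.29, 6.68, 12.16 and 11.74 with avadomide, at 5.43, 5.10, 8.58 and 6.71 with lenalidomide and at 4.50, 3.86, 6.42 and 4.40 with DMSO. The lowest avadomide library was above the highest DMSO library, so these groups did not overlap, and IFIT1 was the only one of the 8 genes for which that held, beside 1% of all tested genes. IFIT3, which stabilises IFIT1 on RNA, stood at 9.21, 5.90, 11.58 and 10.28 with avadomide, at 5.45, 4.54, 7.97 and 5.59 with lenalidomide and at 4.20, 3.21, 6.47 and 3.69 with DMSO. Within each line the 3 treatments kept the order avadomide, lenalidomide, DMSO for both genes, and the groups of IFIT3 overlapped only through SUDHL-4 with avadomide and TMD8 with DMSO.

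IFIT2, which is linked to translation control and cell death, stood at 8.58, 7.18, 10.50 and 9.95 with avadomide, at 6.78, 6.50, 8.08 and 6.26 with lenalidomide and at 6.25, 6.47, 7.48 and 5.29 with DMSO. IFIT5, the triphosphate-binding member, stood at 8.08, 3.75, 10.64 and 9.17 with avadomide, at 5.69, 2.93, 8.98 and 5.03 with lenalidomide and at 5.42, 3.15, 8.47 and 4.09 with DMSO. For both genes avadomide exceeded DMSO in every line, while the groups overlapped over the lines.

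Among the synthetases, OAS1 stood at 12.74, 11.30, 13.40 and 13.24 with avadomide, at 11.53, 11.25, 12.09 and 12.16 with lenalidomide and at 11.55, 11.22, 11.76 and 12.10 with DMSO. OAS2 stood at 13.64, 11.76, 14.63 and 13.57 with avadomide, at 11.55, 11.73, 12.15 and 11.36 with lenalidomide and at 11.34, 11.80, 11.30 and 11.27 with DMSO. In SUDHL-4 the 3 OAS2 values lay within 0.07 of one another, and its DMSO value was the highest of the 4 DMSO libraries. OAS3, the largest of the synthetases, stood at 13.88, 7.77, 14.89 and 15.01 with avadomide, at 12.09, 7.43, 12.22 and 13.08 with lenalidomide and at 11.37, 7.53, 10.42 and 12.83 with DMSO. OASL stood at 5.52, 1.32, 9.50 and 7.38 with avadomide, at 3.28, 1.53, 6.49 and 4.06 with lenalidomide and at 2.28, 1.32, 4.93 and 2.32 with DMSO. SUDHL-4 was the line with the lowest OAS3 and OASL in every treatment.

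**Figure D2:**
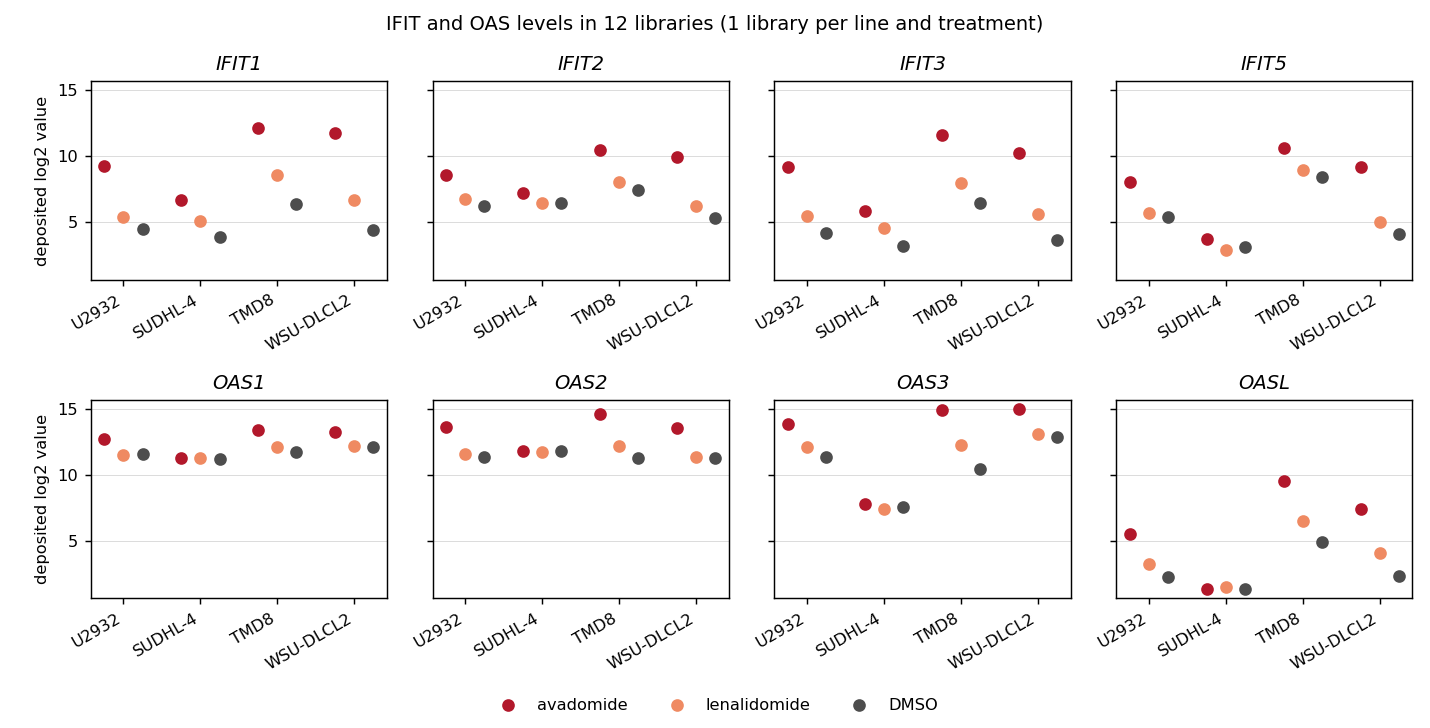
Deposited log2 value of each gene (y axis) in 12 libraries, by cell line (x axis), with avadomide left, lenalidomide in the middle and DMSO right within a line. Each point is 1 library, and levels of different genes are not to be compared. The avadomide points stand above the DMSO points in U2932, TMD8 and WSU-DLCL2 for all 8 genes, while in SUDHL-4 the OAS points lie together.

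The first comparison asked whether avadomide moved these genes over the 4 lines. All 8 rose (limma, Benjamini-Hochberg adjusted p under 0.05, all tested genes in 1 model with cell line as a factor), where 24.8% of the 22528 genes were called and 13.6% were called higher. The median log2 fold change was 2.65 over the 8 genes, 3.76 over the IFIT genes and 2.16 over the OAS genes, against 0.011 over all tested genes. IFIT1 rose by 5.17 ± 0.57 (log2 ± SE over 4 lines; limma adjusted p = 0.000567), IFIT3 by 4.85 ± 0.50 (0.000437), IFIT2 by 2.68 ± 0.48 (0.00417) and IFIT5 by 2.63 ± 0.55 (0.00799). On the deposited scale that is 36.1-fold for IFIT1, 28.8-fold for IFIT3, 6.41-fold for IFIT2 and 6.19-fold for IFIT5, and all 4 rose in 4 of 4 lines.

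OASL rose by 3.22 ± 0.66 (log2 ± SE over 4 lines; limma adjusted p = 0.00750), OAS3 by 2.35 ± 0.49 (0.00819), OAS2 by 1.98 ± 0.42 (0.00917) and OAS1 by 1.01 ± 0.21 (0.00735). OAS1, with a 2.02-fold rise, moved least of the 8, and its 95% interval ran from 0.55 to 1.47. OAS1 and OAS3 were higher in 4 of 4 lines, and OAS2 and OASL in 3 of 4. The 4 IFIT calls held whichever line was left out, with adjusted p up to 0.0493 (IFIT5 without U2932). Without WSU-DLCL2 the OAS calls were lost (limma adjusted p from 0.0508 to 0.0649, OASL at 2.60), where 11.8% of all genes were called. Without U2932 those of OAS2 and OAS3 were lost (0.0598 and 0.0530), where 14.7% were called. A fit to only the 8 avadomide and DMSO libraries called 2 of the 8, IFIT1 and IFIT3, beside 6.11% of all genes. A fit without cell line called 0 of the 8 and 0 of all tested genes. In it 5 of the 8 had an unadjusted p under 0.05, beside 514 of the 22528 tested genes.

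**Figure D3:**
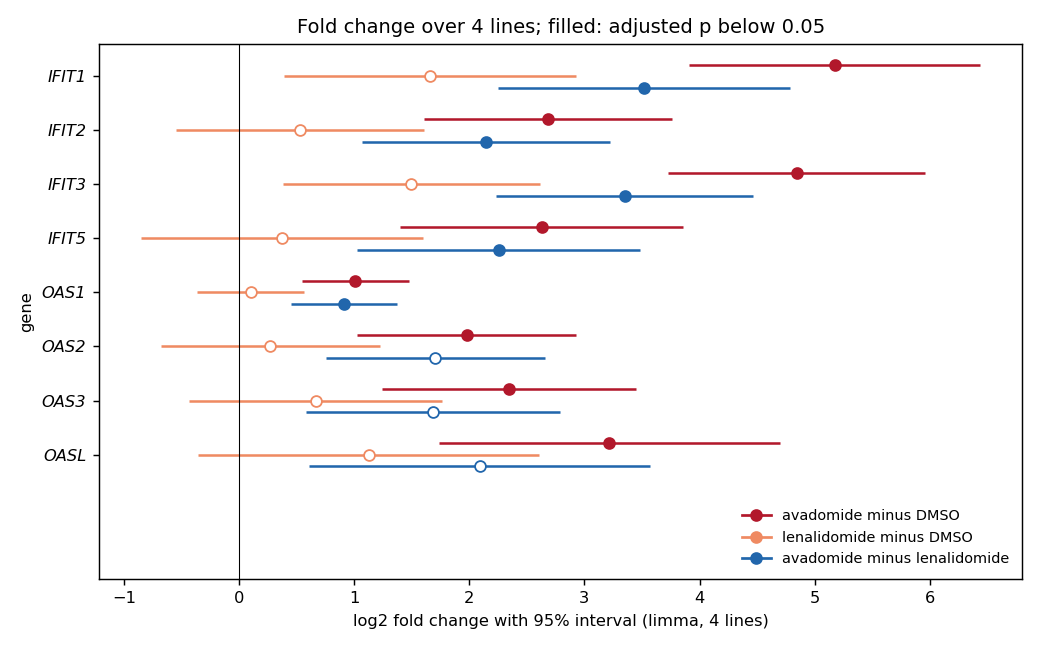
Log2 fold change of each gene (x axis) with its 95% interval from limma over 4 lines, for avadomide minus DMSO (red), lenalidomide minus DMSO (orange) and avadomide minus lenalidomide (blue). Filled points have an adjusted p below 0.05. All 8 red points are filled, from 1.01 for OAS1 to 5.17 for IFIT1, and no orange point is.

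Within single lines the changes can be described but not tested. All 8 genes were at least 2-fold higher with avadomide in U2932 (where 6.07% of all genes were), in TMD8 (6.55%) and in WSU-DLCL2 (6.18%). In SUDHL-4 only IFIT1 and IFIT3 were, at 2.82 and 2.68, beside 1.79% of all genes. IFIT1 ranked 11 and IFIT3 ranked 16 of 22528 genes by their rise in SUDHL-4. IFIT2 and IFIT5 stood at 0.72 and 0.60 there, and OAS3, OAS1, OASL and OAS2 at 0.23, 0.075, -0.00011 and -0.031. The SUDHL-4 median was thus 1.70 for the IFIT genes and 0.037 for the OAS genes. In TMD8 the family medians were close, at 4.06 for IFIT and 3.90 for OAS. In WSU-DLCL2 they were 5.83 and 2.24, and in U2932 3.73 and 2.41.

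The line with the largest avadomide change was WSU-DLCL2 for IFIT1 (7.34), IFIT3 (6.59), IFIT5 (5.08), OASL (5.06) and IFIT2 (4.66). It was TMD8 for OAS3 (4.46), OAS2 (3.33) and OAS1 (1.65), the genes of the chromosome 12 cluster. In WSU-DLCL2 those 3 stood at 2.18, 2.31 and 1.13. OASL, a member of the OAS family outside that cluster, thus had its largest change in the same line as the IFIT genes. With lenalidomide, compared with the same DMSO libraries, the largest changes also lay in WSU-DLCL2 for the IFIT genes and OASL and in TMD8 for OAS1, OAS2 and OAS3.

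**Figure D4:**
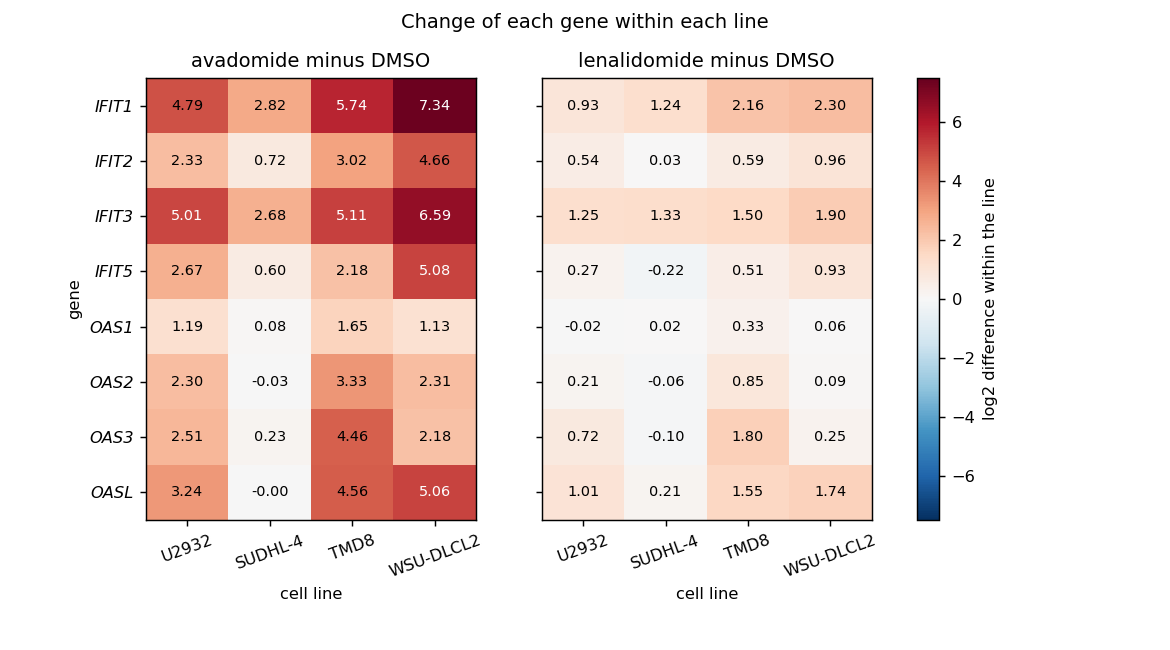
Log2 difference from the DMSO library of the same line for avadomide (left) and lenalidomide (right), genes in rows and lines in columns, red for higher. Each cell compares 2 libraries. With avadomide the SUDHL-4 column runs from -0.03 (OAS2) to 2.82 (IFIT1), and with lenalidomide IFIT1 and IFIT3 are above 0.9 in each line.

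Lenalidomide against DMSO asked the same of the older compound. None of the 8 genes passed the threshold in the limma model, where 0.235% of genes did. IFIT1 and IFIT3 had an unadjusted p under 0.05, as did 2922 of the 22528 tested genes. IFIT1 stood at 1.66 ± 0.57 (log2 ± SE over 4 lines; limma adjusted p = 0.260) and IFIT3 at 1.50 ± 0.50 (0.249), both higher in 4 of 4 lines. OASL stood at 1.13 ± 0.66 (0.516) and IFIT2 at 0.53 ± 0.48 (0.694), also higher in 4 of 4. OAS3 stood at 0.66 ± 0.49 (0.621), IFIT5 at 0.37 ± 0.55 (0.831), OAS2 at 0.27 ± 0.42 (0.842) and OAS1 at 0.099 ± 0.21 (0.887), each higher in 3 of 4 lines. The median was 0.60 over the 8 genes, against 0.000053 over all tested genes.

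This SE pools the spread of all 12 libraries, and the avadomide changes of these genes differed widely between lines. In a fit to only the 8 lenalidomide and DMSO libraries, where 2.97% of genes were called, 3 of the 8 rose. These were IFIT3 (1.50 ± 0.13; limma adjusted p = 0.00891), IFIT1 (1.66 ± 0.22; 0.0170) and OASL (1.13 ± 0.25; 0.0493). IFIT3 differed from DMSO by 1.25, 1.33, 1.50 and 1.90 in the 4 lines with lenalidomide (SD over lines 0.29, against 1.61 with avadomide). Of the 8 genes, those at least 2-fold higher with lenalidomide numbered 2 in U2932 (beside 1.96% of all genes), 2 in SUDHL-4 (0.595%), 3 in WSU-DLCL2 (1.66%) and 4 in TMD8 (1.85%). In SUDHL-4 they were again IFIT1 (1.24) and IFIT3 (1.33).

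The direct difference between the compounds was read with the limit that the doses are not known to match. Avadomide exceeded lenalidomide for 5 of the 8 genes, where 4.73% of genes were called and 2.51% were called higher. IFIT1 was higher by 3.52 ± 0.57 (log2 ± SE over 4 lines; limma adjusted p = 0.0177), IFIT3 by 3.35 ± 0.50 (0.0152), IFIT5 by 2.26 ± 0.55 (0.0490), IFIT2 by 2.15 ± 0.48 (0.0404) and OAS1 by 0.91 ± 0.21 (0.0412). OASL at 2.09 ± 0.66 (0.102), OAS2 at 1.70 ± 0.42 (0.0526) and OAS3 at 1.68 ± 0.49 (0.0824) did not pass, and their 95% intervals were 0.61 to 3.57 for OASL, 0.75 to 2.66 for OAS2 and 0.58 to 2.78 for OAS3. The difference was -0.21 for OASL in SUDHL-4, and the other 31 differences of a gene within a line were positive.

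How many of the 8 passed moved with the libraries and settings, as did the share called over all genes. All 8 passed without SUDHL-4 (beside 2.25% of all genes), and 0 passed without U2932 (0%), without TMD8 (0.275%) or without WSU-DLCL2 (0.0666%), with adjusted p of 0.0695 to 0.309 among the 8. The difference for IFIT1 was 3.40, 3.50 and 3.01 in those 3 fits, against 3.52 with all lines. With the same fold changes, 0 passed with no filter on low values (0.53% of all genes) or with no intensity trend in limma (0.0444%), and 3 with a robust prior (4.47%).

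The changes of the 8 genes over lines and compounds were set against each other in pairs. Across the 8 differences from DMSO (2 compounds in 4 lines), the Pearson correlation of a pair of genes was 0.944 to 0.986 within the IFIT family (6 pairs), 0.835 to 0.994 within the OAS family (6 pairs) and 0.579 to 0.944 between families (16 pairs). OASL correlated with the IFIT genes at 0.891 to 0.944, and with OAS1 at 0.908, OAS2 at 0.923 and OAS3 at 0.835. The 2 compounds of a line share its DMSO library, so these points are not independent and carry no p. By the same measure the genes most like the mean IFIT profile were RELT (0.993), IFI6 (0.988), FLVCR2 (0.987), DDX60L (0.986) and DDX58 (0.984), the gene of the RNA sensor RIG-I. The genes most like the mean OAS profile were TNFSF10 (0.991), PML (0.989), CCDC107 (0.988), IGFBP4 (0.986) and SLFN5 (0.985). In SUDHL-4 with avadomide, a value that entered the choice, the first 5 stood between 0.15 (RELT) and 2.12 (IFI6) and the second 5 between -0.43 (TNFSF10) and 0.13 (CCDC107). A correlation takes no account of the size of a change. Over the 4 lines avadomide minus DMSO was 0.37 for RELT and 3.98 for IFI6, and 0.43 for CCDC107 and 2.60 for SLFN5. PML, at 0.38, was not called (limma adjusted p = 0.0835).

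The steps around the OAS enzymes were read from a list of 8 factors. ABCE1, a ribosome recycling factor, and PDE12, which degrades the oligoadenylates, did not pass with avadomide, at 0.13 ± 0.04 (limma adjusted p = 0.0576) and 0.070 ± 0.04 (0.262); ABCE1 passed without TMD8 (0.0351). Of the 8, 4 rose and 0 fell (13.6% and 11.2% of all tested genes did), with a median of 0.38, and those 4 are not part of the oligoadenylate chain. They were SAMD9L (2.41 ± 0.47) and SAMD9 (0.99 ± 0.21), which restrict translation in infected cells, the helicase gene HELZ2 (1.69 ± 0.41) and SLFN11 (0.42 ± 0.12), which cleaves transfer RNA. Without WSU-DLCL2, 2 of the 8 rose (11.8% of all genes were called either way), as the calls of HELZ2 (0.0939) and SLFN11 (0.0775) were lost. Both were lost without TMD8 too (0.0669 and 0.0681), where ABCE1 passed, and that of SLFN11 without U2932 (0.138).

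A list of 10 enzymes that modify RNA caps, RNA ends or RNA bases moved little. Not all of them act on the ends that IFIT proteins bind. Of the 10 genes, 1 rose and 2 fell with avadomide (13.6% and 11.2% of all tested genes did), with a median of -0.0062. These counts are near the shares over all genes. CMTR1, which adds the 2′-O-methyl group that hides a cap from IFIT1, rose by 0.21 ± 0.06 (limma adjusted p = 0.0282). The decapping enzyme DXO changed by -0.17 ± 0.04 (0.0113) and METTL3, which methylates adenosines in messenger RNA, by -0.11 ± 0.03 (0.0251). CMTR2, the second cap methyltransferase, stood at 0.052 ± 0.06 (0.602). Each of the 3 calls was lost when some line was left out. The limma adjusted p for CMTR1 was 0.132 without WSU-DLCL2, 0.124 without U2932 and 0.124 without TMD8. For DXO it was 0.0795 without WSU-DLCL2 and 0.0699 without U2932. For METTL3 it was 0.140 without WSU-DLCL2, 0.0970 without TMD8 and 0.0770 without SUDHL-4. Of the 10, 0 were called without WSU-DLCL2 (11.8% of all genes) and 1 without U2932 (14.7%). Without TMD8 1 was called (19.1%), and without SUDHL-4 2 were (20.6%).

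Of 15 genes of double-stranded RNA sensing, 11 rose and 1 fell with avadomide (13.6% and 11.2% of all tested genes did), with a median of 0.29. The sensor ZBP1 rose by 1.99 ± 0.24 (limma adjusted p = 0.000824), TLR3, the endosomal receptor, by 1.90 ± 0.56 (0.0335), RIGI (DDX58 in the table) by 1.64 ± 0.31 (0.00493), IFIH1, which encodes MDA5, by 1.48 ± 0.25 (0.00326) and the kinase gene EIF2AK2, which encodes PKR, by 1.14 ± 0.14 (0.000956). PRKRA, an activator of PKR, fell by 0.16 ± 0.04 (0.0165). MAVS, the adaptor of RIG-I and MDA5, stood at 0.13 ± 0.04 (0.0635) and passed without SUDHL-4 (0.0329). In SUDHL-4 ZBP1 stood at 1.98 and IFIH1 at 0.82, against 0.36 for RIGI and -0.12 for TLR3. The levels of ZBP1 and TLR3 were low in that line, at 0.24 and 0.59 with DMSO and at 2.22 and 0.47 with avadomide. The count of 11 became 4 when U2932 was left out, 12 for SUDHL-4, 6 for TMD8 and 5 for WSU-DLCL2. The share of all genes called either way in those fits was 14.7%, 20.6%, 19.1% and 11.8%, in that order. The TLR3 call was lost without U2932 (0.179), TMD8 (0.152) or WSU-DLCL2 (0.0594), and that of PRKRA without U2932 (0.0895) or WSU-DLCL2 (0.109).

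Of 18 genes of ISGF3 and its regulators, 7 rose and 1 fell (13.6% and 11.2% of all tested genes did), with a median of 0.21. Of the complex itself, IRF9 rose with avadomide by 0.84 ± 0.18 (limma adjusted p = 0.00989) and STAT2 by 0.71 ± 0.13 (0.00522). The largest rise was that of USP18, a negative regulator of the receptor and of ISG15 conjugation, at 3.08 ± 0.79 (0.0191), and IRF8 fell by 0.40 ± 0.13 (0.0442). IRF7 rose by 1.90 ± 0.40 (0.00850). In SUDHL-4 STAT2 stood at 0.10, IRF9 at -0.039, IRF7 at -0.058 and USP18 at -0.34. Beside them IFIT1 stood at 2.82 and the 4 OAS genes at -0.031 to 0.23. IFNAR1, a receptor chain for type I interferon, rose by 0.30 ± 0.03 (0.000503), between 0.28 and 0.32 in each line. Genes called higher numbered 3 without U2932 or without WSU-DLCL2, 5 without TMD8 and 8 without SUDHL-4. Of all tested genes 14.7%, 11.8%, 19.1% and 20.6% were called either way in those fits, in that order. Calls were lost for USP18 without U2932 (0.0862), TMD8 (0.0705) or WSU-DLCL2 (0.0866), for IRF9 and IRF7 without U2932 (0.0684 and 0.0598) or WSU-DLCL2 (0.0719 and 0.0606), and for IRF8 without U2932 (0.112), SUDHL-4 (0.0680) or WSU-DLCL2 (0.0710). With lenalidomide 0 of the 51 genes of these 4 lists passed in the limma model, where 0.235% of all genes did. An unadjusted p under 0.05 was reached by 4 of the 51, beside 2922 of all 22528 tested genes, a larger share. Those 4 were IFNAR1 and ABCE1 on the higher side and JAK1 and ZNFX1 on the lower side.

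**Figure D5:**
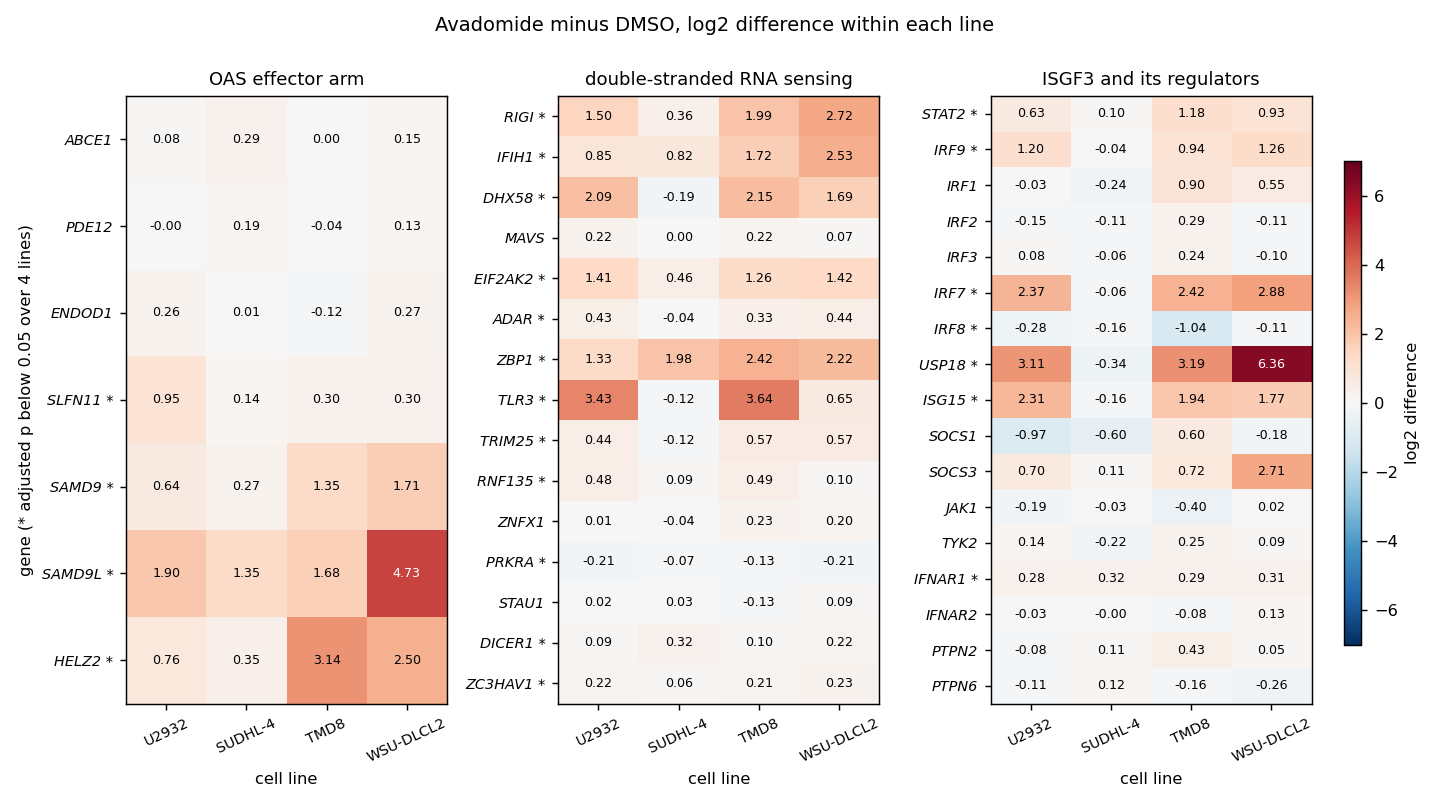
Log2 difference of the avadomide library from the DMSO library of the same line for genes of 3 lists (rows) in 4 lines (columns), red for higher and blue for lower. An asterisk marks an adjusted p below 0.05 over the 4 lines. The SUDHL-4 column is pale for STAT2 (0.10) and IRF7 (-0.06) and darker for ZBP1 (1.98) and SAMD9L (1.35). The ZBP1 level in SUDHL-4 was low, at 0.24 with DMSO.

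With avadomide against DMSO, the tested genes next to the clusters, P2RX7 apart, changed by less than any of the 8 IFIT and OAS genes. Around the IFIT cluster 7 of 11 listed neighbours were tested, of which 2 rose and 2 fell with avadomide. Of all tested genes 13.6% rose and 11.2% fell. LIPA, the lysosomal lipase gene that spans IFIT1, IFIT2 and IFIT3 on the other strand, rose by 0.21 ± 0.05 (limma adjusted p = 0.0135), ACTA2 rose by 0.39 ± 0.12 (0.0430), and PANK1 and STAMBPL1 changed by -0.18 ± 0.05 (0.0220) and -0.16 ± 0.04 (0.0139). IFIT1B, an IFIT gene inside the cluster, was not tested, with values from -2.30 to -2.22 in all 12 libraries. Around the OAS genes 12 of 14 neighbours were tested, of which 1 rose and 5 fell. P2RX7, the ATP-gated channel gene near OASL, rose by 1.38 ± 0.29 (0.00781), and RASAL1, RITA1 and CAMKK2 changed by -0.41 ± 0.06 (0.00200), -0.38 ± 0.04 (0.000642) and -0.29 ± 0.04 (0.00143). The medians were 0.12 for the IFIT neighbours and -0.11 for the OAS neighbours. With 1 line left out, 14.7% (U2932), 20.6% (SUDHL-4), 19.1% (TMD8) and 11.8% (WSU-DLCL2) of all genes were called either way. Each IFIT neighbour call was lost when some line was left out. That of LIPA was lost without SUDHL-4 (limma adjusted p = 0.0687) or TMD8 (0.0546), and that of ACTA2 whichever line was left out (0.0534 to 0.134). The PANK1 call was lost without U2932, TMD8 or WSU-DLCL2 (0.0958 to 0.121), and that of STAMBPL1 without U2932, SUDHL-4 or WSU-DLCL2 (0.0569 to 0.0913). In these fits 0 or 1 IFIT neighbours rose and 0 or 1 fell. The 1 that rose without SUDHL-4 was FAS (0.04135), which was not called with all lines (0.0609). Around the OAS genes 3 fell without SUDHL-4 or WSU-DLCL2, 4 without U2932, and 2 rose without TMD8.

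The lines carried the RNA of B cells. All 8 B-cell markers were tested and their summed level lay between 18.58 and 18.90 (log2) with avadomide and between 18.57 and 18.90 with DMSO. With avadomide 3 B-cell markers fell, CD22 and BLNK among them, where 11.2% of all tested genes fell and 13.6% rose. Among marker lists of other cells, 1 of 5 tested T and NK cell genes rose (NKG7), as did 3 of 6 myeloid genes (LYZ, CD68 and FCN1). Of 8 stromal and epithelial genes 2 rose (COL1A1 and PECAM1) and DCN fell. Several of these calls start near the filter cut of 1. With DMSO, NKG7 lay between 0.32 and 1.50, LYZ between 0.30 and 1.12, and FCN1 between 0.50 and 0.67 outside SUDHL-4. None of the 3 tested plasmacytoid dendritic cell markers was called. Without WSU-DLCL2, where 11.8% of all genes were called either way, 0 B-cell markers fell and 0 myeloid markers rose. The NKG7 and COL1A1 calls were lost in that fit too. Without U2932, where 14.7% were called, 0 myeloid markers rose and 1 B-cell marker fell. The summed levels with avadomide and DMSO were 9.39 to 12.82 and 8.26 to 13.04 for T and NK cells, 4.70 to 7.59 and 4.09 to 6.73 for myeloid cells, 9.47 to 15.52 and 9.19 to 14.92 for plasmacytoid dendritic cells, and 10.41 to 11.80 and 9.49 to 11.86 for stromal and epithelial cells. Single genes made much of these sums. With DMSO TCL1A of the plasmacytoid dendritic list alone stood at 9.18 to 14.88, and TRAC of the T and NK cell list at 7.77 to 13.04. In the stromal and epithelial list DCN reached 11.7 and EPCAM 10.88 with DMSO. The T-cell markers CD3D and GNLY and the myeloid markers S100A8 and S100A9 were at or below 0 in all 12 libraries. The part of such markers in the IFIT and OAS changes was not tested.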

How the data were processed

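RNA was sequenced from 4 lines under 3 treatments. The authors deposited log2 values per gene and library, from -2.41 to 20.1. Per the submitters' processing notes, STAR, Salmon, MACS and hg38 were used, with no versions. No source used here gives the normalization. Depth is unknown, and no counts could be recovered. Of 58684 entries, 28 with symbols turned into dates were left out. A gene was tested (22528 were) when 4 or more libraries had a value of 1 or higher.

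One limma model (3.58.1, R 4.3.3, intensity trend) held treatment and cell line, with 6 residual and 9.62 total degrees of freedom. Tests were two-sided, with Benjamini-Hochberg adjustment over all tested genes at 0.05, and the fit was tested on simulated data. Cell line pairs the libraries by design, and deviations from treatment means correlated at 0.918 to 0.977 within a line and at -0.574 to 0.199 between lines. An exact sign-flip test over 4 lines cannot go below p = 0.125 and was not used.

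Alternatives changed the filter, scaling, variance prior, libraries fitted and lines. The 8 genes, the lists and the tests were chosen with earlier results of these data known. The text names the 8 genes, the 3 largest called changes in each direction per list, list genes whose role is stated, and the 5 genes most like each family. Promoters came from RefSeq and gene positions from GENCODE 29. RIGI, TUT4 and TUT7 were matched through RefSeq synonyms. A few genes of the lists entered the counts and are not reported here by name.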

Additional observations from a re-analysis of the deposited data

Results flagged for a closer look

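In 3 of 48 sets of 4 values, 1 line stood apart by Dixon's test at the 95% level, where chance gives about 1 in 20. OAS2 had its highest DMSO value in SUDHL-4, at 11.80, with the other lines close together. The OAS2 difference between avadomide and lenalidomide was 0.033 in SUDHL-4, far below the other lines. OAS3 with avadomide was 7.77 in SUDHL-4, far below the other lines.

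Some changes ran against the other lines in sign, with 1 library each, so the difference was not tested. With avadomide against DMSO, SUDHL-4 stood at -0.031 for OAS2 and at -0.00011 for OASL, where the other 3 lines were positive. Between avadomide and lenalidomide, SUDHL-4 stood at -0.21 for OASL. With lenalidomide against DMSO, SUDHL-4 stood at -0.22 for IFIT5, at -0.10 for OAS3 and at -0.065 for OAS2, and U2932 stood at -0.016 for OAS1. Most of these values are near 0.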

How the results depend on the processing

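Under the 12 alternatives, no fold change of the 8 genes reversed in any of the 3 comparisons. With avadomide against DMSO, 8 of 8 genes were called (24.8% of all genes), and 0 with no replicate block (0%), which leaves cell line out of the model. With only the 8 libraries compared 2 were called (6.11%), and 4 to 8 when each line was left out (11.8% to 20.6%). With lenalidomide 0 were called (0.235% of all genes), 3 with only its 8 libraries (2.97%), and 0 when any line was left out (0% to 0.297%). Between avadomide and lenalidomide 5 were called (4.73% of all genes), 0 with no replicate block (0%), with no filter on low values (0.53%) or with no intensity trend (0.0444%), 3 with a robust prior (4.47%), and 0 to 8 when each line was left out (0% to 2.25%). Quantile normalization gave 8, 0 and 5 (27.5%, 0.0932% and 5.25% of all genes), and median centring 8, 0 and 6 (29.8%, 0% and 7.71%). Of single values, 225 of 288 kept their side of the threshold. Of all tested genes in the avadomide comparison, 5582 were called in the model used, 1376 with only the 8 libraries compared, 3315 without U2932, 2666 without WSU-DLCL2 and 0 with no replicate block. Depth is unknown, so no limit of detection can be given for OASL and IFIT5 in SUDHL-4.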

Other observations

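In SUDHL-4, where IFIT1 ranked 11 by its rise with avadomide, the genes above it included the following. These names were chosen after their values were seen, and each rests on 1 library per treatment. CD300A, an inhibitory immune receptor, was at 5.08 with avadomide and 0.71 with DMSO, IL34, a ligand of the CSF1 receptor, at 4.12 and 0.088, and the tight junction gene CLDN7 at 4.71 and 1.08. CC2D2A, a ciliary protein, ranked 15, at 7.27 with avadomide and 4.56 with DMSO. TMEM173, which encodes the adaptor STING, ranked 21, at 5.13 and 2.57.

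The interferon gene IFNB1, also chosen after its values were seen, had low values that followed the same division of lines. It stood at 2.74, -0.086, 3.74 and 1.85 with avadomide, at 0.59, -0.57, 1.57 and -0.22 with lenalidomide and at 0.75, -0.34, 0.62 and -0.35 with DMSO. It passed the filter with 3 avadomide libraries and 1 lenalidomide library at 1 or higher, so no test is given.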
